A study of Mus musculus with 6 samples.

Results

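Immunoglobulin gene segments were read by 34 probe sets of a mouse whole-transcript array (Affymetrix) hybridised with RNA of purified CD8+ T cells. The members were chosen by their annotated symbols alone, and are all probe sets with symbols that begin with the letters of an immunoglobulin heavy, kappa or lambda segment, single or several symbols, each counted once. These letters took 35 of the 41345 probe sets of the table. The probe set of Ighmbp2, a helicase gene that shares only its first letters, was kept apart (5.09 ± 0.02 in Dot1l knockout arrays and 5.03 ± 0.05 in wild type arrays, log2 mean ± SD, n = 3 each). No expression value enters the selection, but the set was taken up after immunoglobulin genes had been seen among the larger differences of the same comparison. The differences between the groups are therefore descriptions of these arrays and carry no test of their own.

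The 3 arrays labelled Dot1l knockout came from C57BL/6 mice in which a floxed Dot1l gene was combined with a CD4-Cre transgene, whose Cd4 regulatory elements are on in thymocytes before they choose the CD4 or CD8 fate. The 3 arrays labelled wild type came from C57BL/6 mice, and the labels do not say whether these carried the floxed allele or the Cre. In both groups the CD8+ T cells were isolated fresh with an EasySep kit from spleen and peripheral lymph nodes, and no treatment is listed. The labels give no age, sex or number of animals, and do not say whether replicates were separate animals. The spread between arrays may therefore be technical in part, and cannot be read as the spread between animals. All values are log2 expression values as deposited.

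An antibody is built of heavy and light chains. Developing B cells join V, D and J segments of the heavy chain locus, and V and J segments of the kappa or lambda locus, and splice the joined exon to a constant region such as Ighm, which gives IgM, or Ighg3, which gives an IgG subclass made by B cells after class switching. Transcription of the joined gene is strong in B cells and strongest in antibody-secreting plasma cells, and mature T cells are not known to make functional antibody chains. V segments of one family resemble each other in sequence, so a probe set named for 1 segment may also read its relatives.

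By annotation, 9 probe sets named only a heavy chain constant region (7 Ighm and 2 Ighg3), 3 a heavy chain V segment, 15 a kappa V segment, 1 the kappa joining segment Igkj1 and 1 the lambda segment Iglv1. Another 5 named several segments. Which exons each probe set reads was not checked, so one named for a constant region may read other parts of the transcripts. The 23 different symbols were all found by gene identifier in the RefSeq gene table, which places the heavy chain segments on chromosome 12, the kappa segments on chromosome 6 and Iglv1 on chromosome 16. A guide to background was set at 3.83, the 95th percentile of the mean level of 1405 probe sets of olfactory and vomeronasal receptors. Averaged over the 6 arrays, 25 of the 34 members lay above it, and 6 members lay at or below it in every array.

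The purified cells carried the markers of their label. Cd8a read 10.87 to 10.99 in knockout arrays and 10.99 to 11.23 in wild type arrays, Cd3e read 11.71 to 11.76 and 11.79 to 11.89 in the same order, and Cd4 stayed between 3.60 and 4.03 in all 6 arrays. Cd8b1 read 11.13 to 11.27 in knockout and 11.18 to 11.37 in wild type arrays. The Dot1l probe set did not separate the groups (7.26 to 7.33 in knockout and 6.96 to 7.46 in wild type arrays), and the sources used here do not say which exon the floxed allele loses, so directions refer to the arrays as labelled. Over all probe sets, 278 passed as lower and 1408 as higher in knockout arrays (limma, Benjamini-Hochberg adjusted p under 0.05), and 83.5% of these calls were higher, against 70.5% after another quantile normalization.

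Wild type replicate 3 stood apart from the other arrays in immunoglobulin probe sets and Xist, but not over the whole table, where its correlation with wild type replicates 1 and 2 (r = 0.982 and 0.980 across probe sets) was above that between those 2 arrays (0.971). In 14 of the 34 immunoglobulin probe sets its value lay at least 1 log2 unit above all of the 5 other arrays, which 0.198% of all probe sets in the table did. It was the highest of the 6 arrays in 24 of 34 members (14.7% of all probe sets). The same array read 6.91 for Xist, the RNA that coats the inactive X chromosome of female cells, against 2.65 and 3.22 in wild type replicates 1 and 2 and 2.89 to 3.28 in knockout arrays. The Y-linked genes Eif2s3y, Uty and Kdm5d read 8.19, 6.57 and 6.00 in that array, each within the range of the 5 other arrays. Xist and the Y-linked genes were looked up after the immunoglobulin values had been seen, and their part in the results was not tested. Differences of members above the background guide are therefore given with and without this array.

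**Figure D1:**
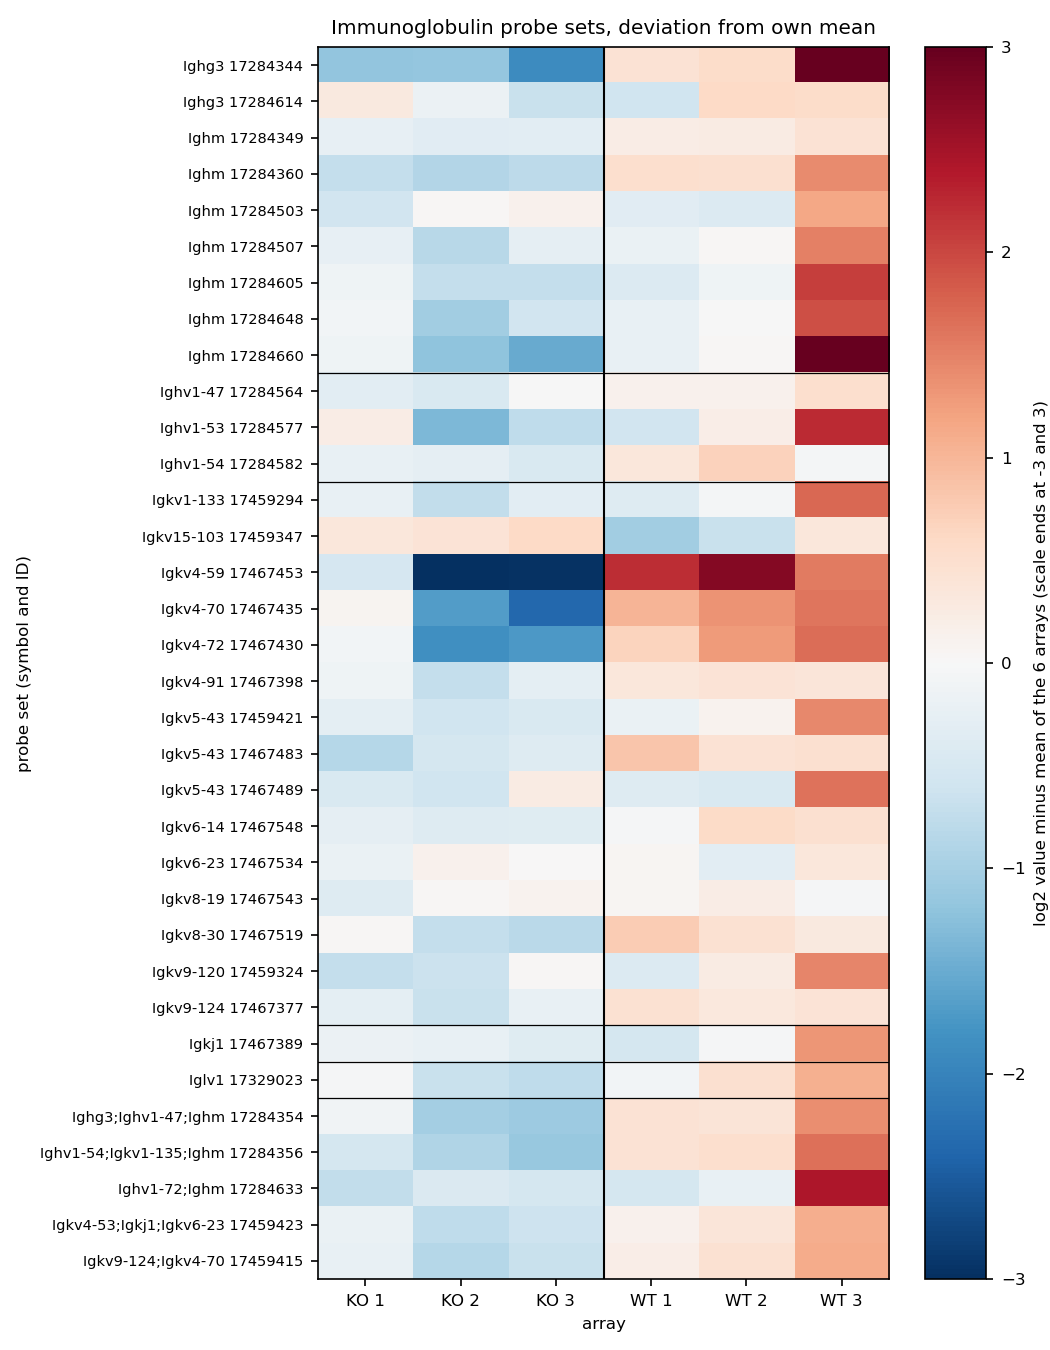
Each row is 1 immunoglobulin probe set, each column 1 array (Dot1l knockout left, wild type right), and the colour is the log2 value minus that probe set's mean over the 6 arrays. Wild type replicate 3 carries the reddest column in 24 of the 34 rows, and 33 of the 34 rows are lower on average in the knockout arrays.

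The 9 probe sets named only for a heavy chain constant region were all lower in knockout arrays (49.2% of all probe sets were lower). Of the 9, 2 passed as lower (0.672% of all probe sets). Their median difference was -1.03 with all arrays and -0.45 without wild type replicate 3, beside 0.00 over all probe sets of the table. Fewer cells of a type and less RNA per cell cannot be told apart in such bulk samples.

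Ighm, the constant region of IgM, was the only symbol of 7 probe sets, which disagreed in size. Probe set 17284360 read 9.39, 9.22 and 9.31 in knockout arrays and 10.62, 10.58 and 11.52 in wild type arrays. The groups did not overlap, knockout arrays lay close together, and wild type replicate 3 was the highest. The difference was -1.60 (SE 0.25), a 3.03-fold lower level, and -1.29 without wild type replicate 3. This probe set passed over the whole table with all arrays and without any 1 of the wild type arrays, but not without knockout replicate 1, 2 or 3.

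Probe set 17284349 of Ighm read 10.44, 10.33 and 10.36 in knockout arrays and 10.91, 10.93 and 11.10 in wild type arrays. Here all arrays of a group lay close together and no wild type array stood apart. The difference was -0.60 (SE 0.10), a 1.52-fold lower level, which passed with all arrays and gave -0.54 without wild type replicate 3, where it did not pass. It also did not pass without knockout replicate 1, 2 or 3.

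In the 5 other Ighm probe sets wild type replicate 3 lay at least 1 above all other arrays. Probe set 17284660 read 5.47, 4.39 and 4.09 in knockout arrays and 5.37, 5.63 and 8.65 in wild type arrays. Knockout replicate 1 lay among the lower wild type values and only replicate 3 of the wild type arrays was high. Its difference was -1.90 (SE 0.87) and -0.85 without that array, and it passed neither way. In probe sets 17284507, 17284605 and 17284648 the differences of -0.90, -1.03 and -1.13 shrank to -0.36, -0.25 and -0.45 without wild type replicate 3, and none of these passed. Probe set 17284503 lay below the background guide in the mean of both groups (3.24 in knockout and 3.51 in wild type arrays), and its difference of -0.27 became 0.24.

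Ighg3, the constant region of a class-switched antibody, was the only symbol of 2 probe sets. Probe set 17284344 read 4.76, 4.79 and 4.07 in knockout arrays and 6.38, 6.51 and 9.20 in wild type arrays. All wild type arrays lay above all knockout arrays, and replicate 3 lay 2.69 above the next highest array. The difference was -2.83 (SE 0.73), a 7.11-fold lower level, with an SD of 1.59 among wild type arrays. It did not pass with all arrays and passed at -1.91 without wild type replicate 3, a smaller difference with less spread. The other Ighg3 probe set, 17284614, read 3.42 ± 0.47 in knockout and 3.79 ± 0.68 in wild type arrays, below the guide in both.

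**Figure D2:**
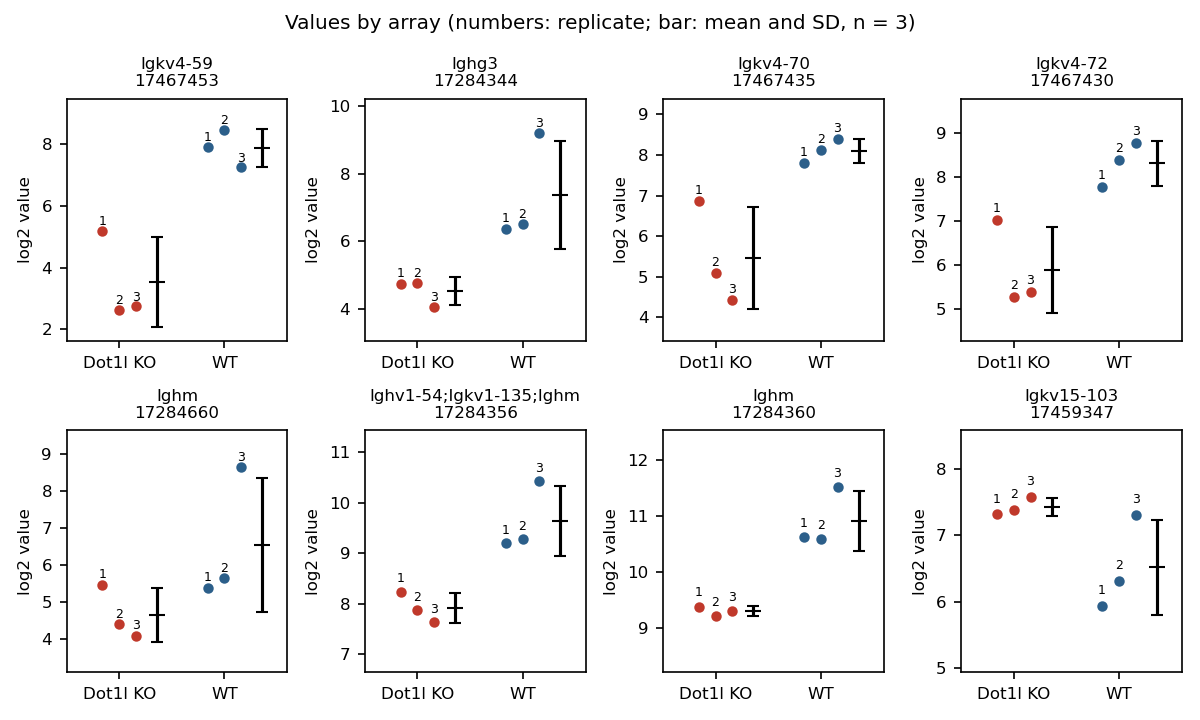
Log2 values of 8 immunoglobulin probe sets in each array (points numbered by replicate, Dot1l knockout red at left, wild type blue at right, bars mean and SD of 3 arrays), namely Igkv15-103 and the 7 members at least 3-fold lower. The wild type point marked 3 lies far above the others for Ighg3 and Ighm 17284660 but not for the Igkv4 segments, where the knockout point marked 1 is the high one of its group.

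The 3 heavy chain V segments all belong to the Ighv1 family. They had a median difference of -0.64, or -0.44 without wild type replicate 3. Of the 3, 0 passed (0.672% of all probe sets passed as lower and 3.41% as higher). Ighv1-53 read 6.46, 4.89 and 5.47 in knockout arrays and 5.66, 6.44 and 8.46 in wild type arrays. The groups overlapped, since knockout replicate 1 lay above 2 of the wild type arrays. The difference was -1.25 (SE 0.74) and -0.44 without wild type replicate 3. Ighv1-47 and Ighv1-54 lay below the background guide in every array, with differences of -0.52 and -0.64.

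Kappa V segments made up the largest group. Of 15 probe sets, 14 were lower in knockout arrays (49.2% of all probe sets) and 4 passed as lower (0.672%). Their median difference was -0.85 (-0.61 without wild type replicate 3). Their largest differences were in the Igkv4 family, in which wild type replicate 3 did not stand apart.

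Igkv4-59 read 5.20, 2.62 and 2.74 in knockout arrays and 7.91, 8.46 and 7.25 in wild type arrays. The groups lay far apart, knockout replicates 2 and 3 were below the background guide, and knockout replicate 1 lay between them and the wild type arrays. The difference was -4.35 (SE 0.70), a 20.4-fold lower level, and -4.66 without wild type replicate 3. Since 2 of the knockout values were at background, the size is uncertain.

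Igkv4-70 read 6.86, 5.10 and 4.42 in knockout arrays and 7.79, 8.12 and 8.38 in wild type arrays, a difference of -2.64 (SE 0.58) that was -2.49 without wild type replicate 3. Igkv4-72 read 7.01, 5.26 and 5.38 in knockout arrays and 7.76, 8.38 and 8.77 in wild type arrays, a difference of -2.42 (SE 0.50) that was -2.18 without that array. In both, the groups did not overlap and knockout replicate 1 was the high one of its group, as for Igkv4-59. The distance of that array from the mean of the other two knockout arrays was 2.52 for Igkv4-59, 2.10 for Igkv4-70 and 1.69 for Igkv4-72. Igkv4-59 and Igkv4-72 passed with all arrays and Igkv4-70 did not. Without knockout replicate 1 the differences were -5.19, -3.34 and -2.98 in that order, and all 3 segments passed there. When any of the 5 other arrays was left out, wild type replicate 3 included, none of the 3 passed.

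The fourth segment of that family, Igkv4-91, behaved differently in size and spread. It read 6.74, 6.17 and 6.59 in knockout arrays and 7.22, 7.27 and 7.24 in wild type arrays. The wild type arrays were nearly equal (SD 0.03), and the difference of -0.74 (SE 0.16), or -0.75 without wild type replicate 3, did not pass.

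Igkv5-43 was read by 3 probe sets that did not behave alike. Probe set 17467483 read 2.97, 3.30 and 3.43 in knockout arrays, below the guide, and 4.64, 4.26 and 4.30 in wild type arrays, and its difference of -1.17 (SE 0.16) passed, as did -1.22 without wild type replicate 3. Among the fits that left out 1 array, it lost its call only without knockout replicate 2. It also did not pass with a replicate block. Probe set 17459421 read 9.20, 8.88 and 9.04 in knockout arrays and 9.29, 9.59 and 10.92 in wild type arrays. Its groups did not overlap but lay close except for wild type replicate 3, and its difference of -0.90 (SE 0.40) became -0.40 without that array. Probe set 17467489 gave -0.53, and 0.15 without it.

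Igkv15-103 was the 1 member with a higher mean in knockout arrays. It read 7.31, 7.38 and 7.58 in knockout arrays and 5.93, 6.31 and 7.30 in wild type arrays. The knockout arrays lay close together, and wild type replicate 3 reached almost their level. The difference was 0.91 (SE 0.33), which did not pass, and 1.31 without wild type replicate 3, where it passed. Leaving out that array thus made the difference of this segment larger, whereas it made those of most heavy chain probe sets smaller.

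Of the remaining kappa V segments, Igkv9-120 read 6.46 ± 0.42 in knockout and 7.34 ± 0.95 in wild type arrays, and Igkv1-133 read 3.61 ± 0.27 and 4.46 ± 1.14 in the same order. Both were highest in wild type replicate 3, and their differences of -0.88 and -0.85 shrank to -0.36 and -0.19 without it. Igkv8-30 read 4.72 ± 0.46 in knockout and 5.71 ± 0.24 in wild type arrays, a difference of -0.99 (SE 0.25) that did not pass and was -1.10 without that array. Igkv9-124, Igkv6-14, Igkv6-23 and Igkv8-19 lay below the guide in every array. Igkv9-124 passed with all arrays (-0.79, SE 0.14) and in no fit that left out 1, at levels where the size of a difference cannot be read, and the other low segments differed by -0.68, -0.04 and -0.16.

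The kappa joining segment Igkj1 read 6.01, 5.96 and 5.83 in knockout arrays and 5.66, 6.16 and 7.52 in wild type arrays. Wild type replicate 1 was the lowest array and replicate 3 the highest, by 1.36, and the difference of -0.52 (SE 0.44) was 0.02 without it. Iglv1, a V segment of the lambda light chain, read 5.08, 4.46 and 4.37 in knockout arrays and 5.05, 5.61 and 6.18 in wild type arrays (-0.98, SE 0.32). Knockout replicate 1 lay just above the lowest wild type array. The difference did not pass, and was -0.69 without wild type replicate 3.

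The 5 probe sets with several symbols were lower in knockout arrays in each case (49.2% of all probe sets were lower). Their median difference was -1.16 (-0.90 without wild type replicate 3), and 1 passed as lower (0.672% of all probe sets). The probe set of Ighv1-54, Igkv1-135 and Ighm, which spans 2 loci by its annotation, read 8.24, 7.88 and 7.64 in knockout arrays and 9.20, 9.28 and 10.43 in wild type arrays. It passed at -1.71 (SE 0.34) and also at -1.32 without wild type replicate 3. It lost its call in each fit that dropped 1 of the 5 other arrays. The probe set of Ighg3, Ighv1-47 and Ighm read 8.85, 7.93 and 7.86 in knockout arrays and 9.38, 9.33 and 10.34 in wild type arrays (-1.47, SE 0.36, and -1.14 without wild type replicate 3), with knockout replicate 1 nearest to the wild type arrays.

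Both bright kappa probe sets with several symbols gave the same order of arrays. The probe set of Igkv9-124 and Igkv4-70 read 10.11, 9.48 and 9.68 in knockout arrays and 10.53, 10.79 and 11.44 in wild type arrays (-1.16, SE 0.27). The probe set of Igkv4-53, Igkj1 and Igkv6-23 read 10.09, 9.54 and 9.67 in knockout arrays and 10.43, 10.66 and 11.40 in wild type arrays (-1.06, SE 0.27). The groups did not overlap in either, and neither passed. Without wild type replicate 3 the differences were -0.90 and -0.78 in that order. The probe set of Ighv1-72 and Ighm read 6.02, 6.31 and 6.22 in knockout arrays and 6.23, 6.54 and 9.17 in wild type arrays, and its difference of -1.13 (SE 0.73) was -0.20 without wild type replicate 3.

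Counted over all 34 members, 33 were lower and 1 higher in knockout arrays, with a median difference of -0.94, whereas 49.2% of all probe sets were lower. At least 2-fold lower levels were seen in 15 members (0.924% of all probe sets) and at least 2-fold higher levels in 0 (3.48%). The groups did not overlap in 20 members, 19 lower (8.95% of all probe sets) and 1 higher (14.7%). In the fit over all probe sets 7 members passed as lower (0.672% of all probe sets) and 0 as higher (3.41%), and at an unadjusted p under 0.05 the counts were 18 (5.33% of all probe sets) and 1 (12.2%). The 7 were the Ighm probe sets 17284349 and 17284360, Igkv4-59, Igkv4-72, Igkv9-124, Igkv5-43 17467483 and the probe set of Ighv1-54, Igkv1-135 and Ighm. None of the 7 passed in every fit that left out 1 array.

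Without wild type replicate 3 the median difference was -0.58, 29 of 34 members were lower, 9 were at least 2-fold lower, and 4 passed as lower (0.3% of all probe sets in that fit) and 1 as higher (1.66%). Of the 4, 3 had also passed with all arrays, and the fourth was Ighg3 17284344. The number passing as lower was 5 without knockout replicate 1 (0.271% of all probe sets), 0 without replicate 2 (0.0992%, and 16 members at an unadjusted p under 0.05, as 3.45% of all probe sets) and 1 without replicate 3 (0.111%). It was 4 without wild type replicate 1 (0.44%) and 3 without replicate 2 (1.11%). As higher, 0 members passed in each of these 5 fits. The share of all probe sets that did was 1.94%, 0.813% and 0.992% without knockout replicates 1, 2 and 3, and 2.81% and 2.59% without wild type replicates 1 and 2. With a replicate block 0 members passed (0.0847% of all probe sets lower and 0.876% higher), and at an unadjusted p under 0.05 there were 20 lower (4.11%) and 1 higher (10.8%). When only probe sets with a symbol were fitted 12 members passed as lower (1.02%). At an adjusted p under 0.01 the count was 0 (0.0847%, and 0.728% of all probe sets higher), and under 0.1 it was 15 (1.34%). After quantile normalization 5 passed as lower (0.922%) and 0 as higher (2.2%).

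**Figure D3:**
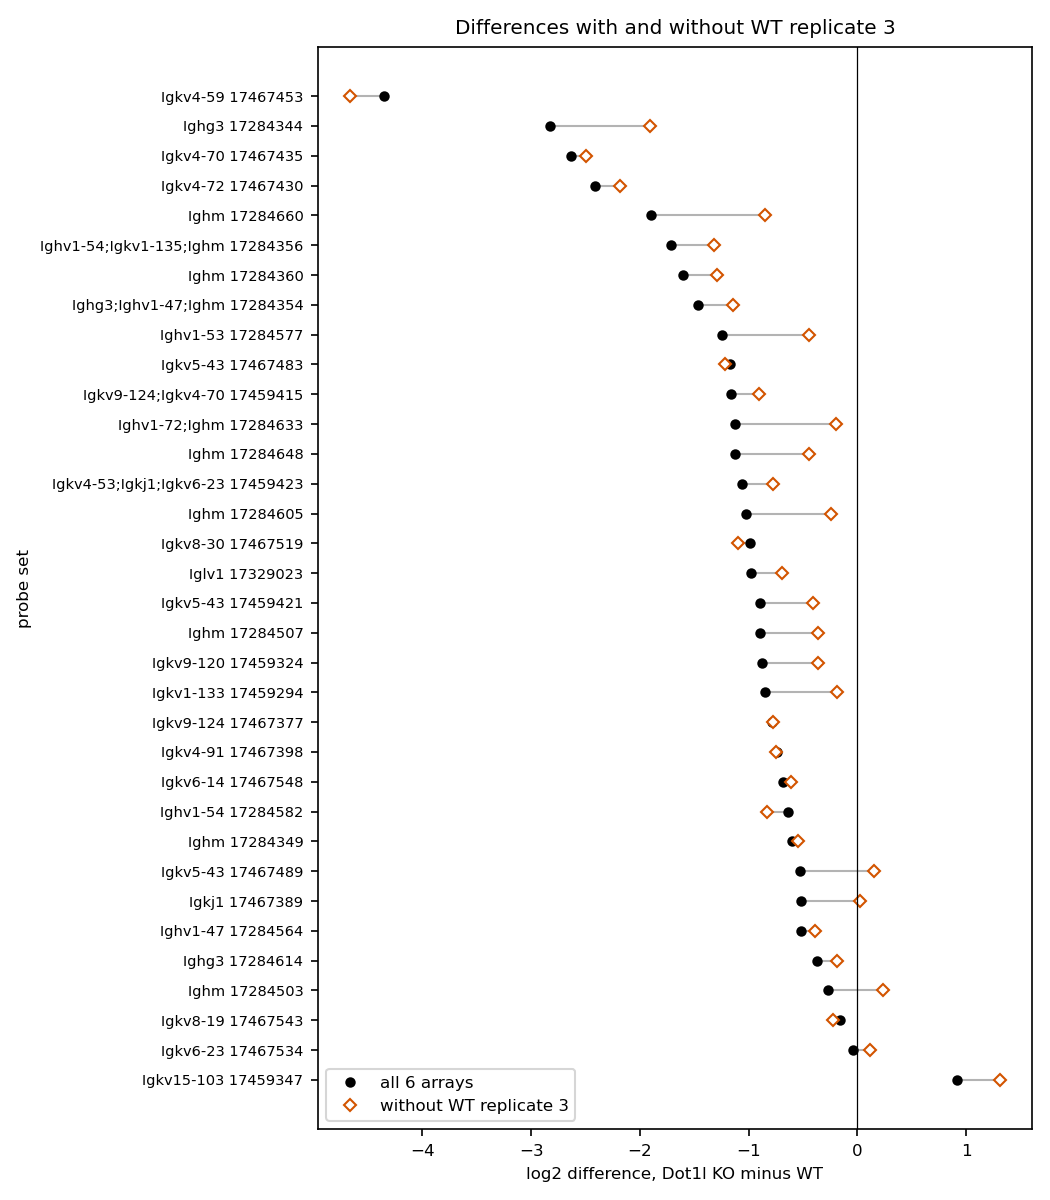
Log2 difference (Dot1l knockout minus wild type) of each of the 34 immunoglobulin probe sets, with all 6 arrays (black) and without wild type replicate 3 (open orange). The median is -0.94 with all arrays and -0.58 without that array, and the 3 Igkv4 segments with differences beyond -2 move little.

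Arrays of one group differed more in these probe sets than in others of like level. The median SD of the members was 0.31 over knockout arrays and 0.59 over wild type arrays. Each member was set beside the median SD of the other probe sets in the same one of 10 equal classes of mean level. The median of these class values over the members was 0.14 in knockout and 0.17 in wild type arrays. The SD lay above the 95th percentile of like-level probe sets in 11 members in knockout arrays and in 20 members in wild type arrays. Wild type SDs ran from 0.03 for Igkv4-91 to 1.82 for Ighm 17284660.

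Much of the wild type spread came with replicate 3. That array lay above the mean of wild type replicates 1 and 2 by a median of 0.89 over the members, and by -0.01 over all probe sets. Wild type replicates 1 and 2 differed by a median of 0.29 in the members and 0.22 in all probe sets, and the median SD over these 2 arrays was 0.21. Here raised means at least 1 above every other array. The members raised in replicate 3 were 6 of 9 probe sets named only for a constant region and 1 of 3 heavy chain V segments. Also raised in replicate 3 were 4 of 15 kappa V segments, Igkj1 and 2 of the 5 with several symbols. Of the 4 Igkv4 segments 0 were raised in it. Among these 14 raised members the groups did not overlap in 4, all lower, and among the other 20 members in 15 lower and 1 higher (8.95% and 14.7% of all probe sets).

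In knockout arrays replicate 1 was the high one. It had the highest value of its group in 23 of 34 members (31.3% of all probe sets), and without it the median SD over knockout arrays was 0.12.

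**Figure D4:**
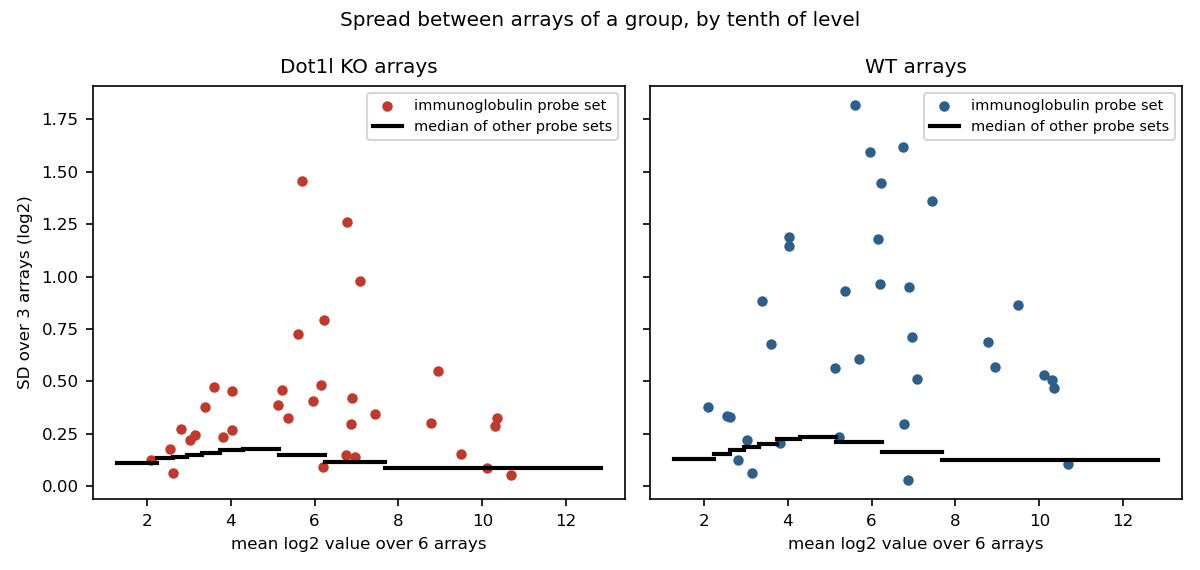
SD over the 3 arrays of a group (Dot1l knockout left panel, wild type right panel) against the mean log2 value, for the 34 immunoglobulin probe sets (points), with the median SD of all other probe sets in each of 10 equal classes of level (black bars). Most points lie above the bars in both groups, up to 1.45 in knockout and 1.82 in wild type arrays.

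T cell receptor segments, which are assembled in the same way but in T cells, gave a narrower spread, at higher median levels. These were 8.07 to 8.19 in knockout and 8.53 to 8.79 in wild type arrays. Those of the immunoglobulin members were 4.76 to 5.74 and 5.94 to 7.41. In the highest of the 10 classes of level, the 7 immunoglobulin members had median SDs of 0.29 in knockout and 0.53 in wild type arrays. Other probe sets there had 0.09 and 0.13. In 21 probe sets of Trav, Trbv and Trgv segments the median SD was 0.08 in knockout and 0.14 in wild type arrays, and wild type replicate 3 was raised by at least 1 in 0 of them. Of the 21, 19 were lower in knockout arrays and 10 passed as lower (0.672% of all probe sets). Their median difference of -0.67 was -0.70 without that array. The difference between these segments and the immunoglobulin segments was not tested.

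Genes that accompany immunoglobulin transcripts in B lineage cells did not all follow them. Jchain, the chain that links IgM and IgA molecules and is made by plasma cells, read 6.28, 5.71 and 6.09 in knockout arrays and 6.32, 6.56 and 7.77 in wild type arrays. It was highest in wild type replicate 3, like most members, and its difference of -0.86 (SE 0.38, limma adjusted p = 0.308) did not pass. Cd79a and Cd79b, which carry the signal of the B cell receptor, were not lower. Cd79a read 6.22, 5.65 and 5.98 in knockout arrays and 4.76, 4.95 and 5.55 in wild type arrays (0.86, SE 0.24, limma adjusted p = 0.115), and Cd79b averaged 6.76 ± 0.07 in knockout and 6.52 ± 0.24 in wild type arrays.

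Of 17 measured B cell markers 3 passed as higher in knockout arrays (3.41% of all probe sets did) and 0 as lower (0.672%). Ms4a1, which encodes CD20, rose to 4.37 ± 0.26 in knockout arrays, against 3.24 ± 0.10 in wild type arrays (1.13, SE 0.15, limma adjusted p = 0.0142), but its wild type values lay below the background guide, so the size cannot be read. The inhibitory co-receptor gene Cd22 rose by 1.29 (SE 0.17, adjusted p = 0.0135) and Ly6d by 0.82 (SE 0.14, adjusted p = 0.0278). Each of these 3 genes kept its call without any 1 of the wild type arrays. Ms4a1 lost it without knockout replicate 2, Cd22 without replicate 2 or 3, and Ly6d without replicate 1, 2 or 3. The mean log2 level over the 17 markers was 4.60 to 4.68 in knockout and 4.32 to 4.43 in wild type arrays, and 5 of them, among them Pax5 and Ebf1, which set B cell identity, lay below the background guide in every array. Wild type replicate 3 was the highest array in 3 of the 17. The part of these levels in the immunoglobulin differences was not tested.

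In the plasma cell list 1 of 12 measured genes passed as higher (3.41% of all probe sets) and 0 as lower (0.672%). The gene was Txndc5, a protein disulphide isomerase of the endoplasmic reticulum (0.54, SE 0.10, adjusted p = 0.0346). Txndc5 lost its call in every fit that left out 1 array. Sdc1, the surface marker of plasma cells, read 3.38 to 3.81 in knockout and 3.42 to 3.89 in wild type arrays, near the background guide, and Tnfrsf17, the plasma cell survival receptor, stayed at or below 3.16. The mean level over the list was 5.51 to 5.63 in knockout and 5.47 to 5.59 in wild type arrays. Its highest genes were Edem1 and Xbp1, with means of 8.42 and 8.21 over all arrays. The list mean is therefore no measure of plasma cell content, which was not tested. Over the B cell and plasma cell markers together 2 of 29 were lower and 7 higher at an unadjusted p under 0.05, as 5.33% and 12.2% of all probe sets were.

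Among transcription factors of immunoglobulin genes 1 of 9 measured genes passed as lower (0.672% of all probe sets) and 0 as higher (3.41%). Pou2f2, the octamer-binding factor known from immunoglobulin promoters, read 4.53, 4.16 and 4.37 in knockout arrays and 5.35, 5.10 and 5.11 in wild type arrays. The groups did not overlap and wild type replicate 3 was not high, and the gene fell by 0.83 (SE 0.14, limma adjusted p = 0.0251), or 0.87 without that array (adjusted p = 0.0674). Its coactivator Pou2af1 read 5.79 ± 0.18 in knockout and 6.31 ± 0.14 in wild type arrays (-0.52, SE 0.13, adjusted p = 0.0932). Irf8, a factor of B cells and myeloid cells, differed by 0.80 (SE 0.17, adjusted p = 0.0534). Without wild type replicate 3 it was the 1 gene of this list to pass, as higher (1.66% of all probe sets in that fit).

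In the lists of other cell types Cd40lg, a CD4 T cell activation gene, fell by 0.88 in knockout arrays (SE 0.16, limma adjusted p = 0.0346). Its knockout values and 1 wild type value lay below the background guide, so that size cannot be read. Itgax, the dendritic cell integrin gene, rose by 1.14 (SE 0.18, limma adjusted p = 0.0206). These were 1 of 4 CD4 T cell markers (0.672% of all probe sets passed as lower) and 1 of 9 myeloid and dendritic markers (3.41% as higher). Among the fits that left out 1 array, Itgax passed only without wild type replicate 2 or 3, and Cd40lg only without wild type replicate 2. Of 7 CD8 T cell markers 0 passed.

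Genes of segment joining and of the surrogate light chain were set beside the 0.672% of all probe sets that passed as lower and the 3.41% that passed as higher, shares at which lists this short can be without a call. Of 8 measured genes for assembly and diversification, which include the recombinase gene Rag2, the nucleotide-adding enzyme gene Dntt and the end-joining genes Xrcc5 and Xrcc6, 0 passed, with differences from -0.06 for Rag2 to 0.46 for Prkdc, which encodes the DNA-dependent kinase. Of 7 partner chain genes 0 passed. The surrogate light chain genes Igll1 and Vpreb1 lay below the background guide in every array. Vpreb2 lay above it in every array (4.44, 4.66 and 5.03 in knockout and 4.31, 5.22 and 4.87 in wild type arrays).

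**Figure D5:**
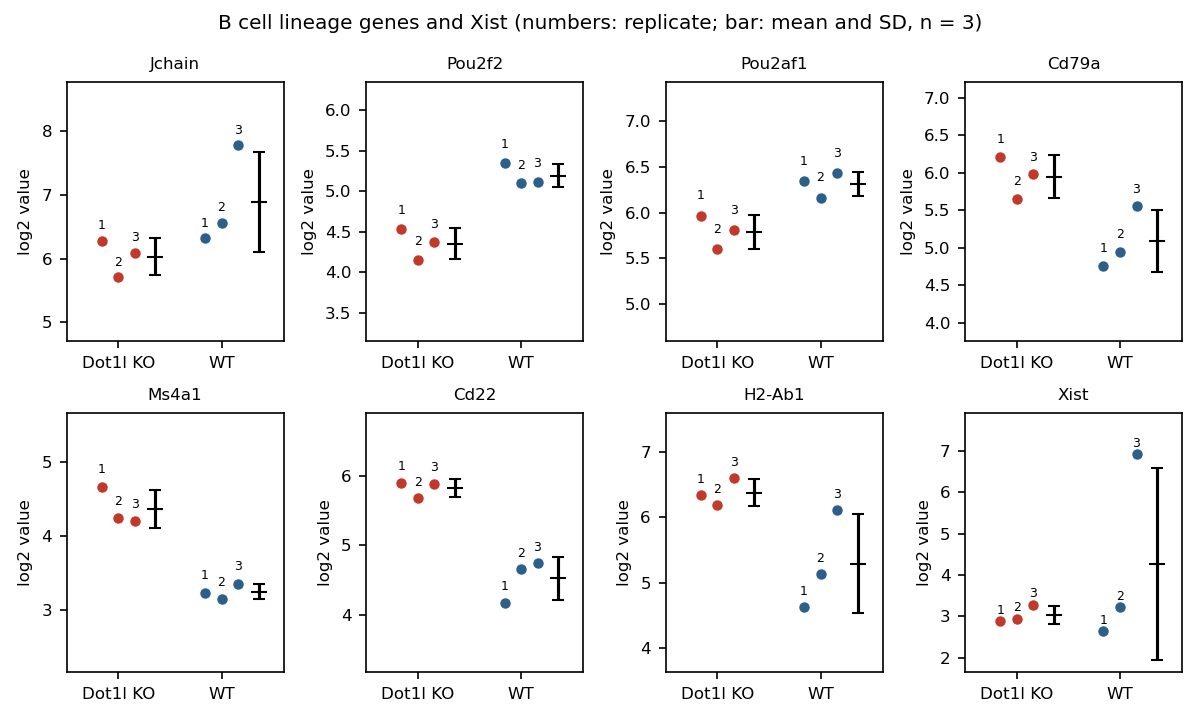
Log2 values of 7 B cell lineage or antigen presentation genes and of Xist in each array (points numbered by replicate, Dot1l knockout red at left, wild type blue at right, bars mean and SD of 3 arrays). Jchain and Xist are highest in wild type replicate 3, while Ms4a1, Cd22 and Cd79a are higher in knockout arrays and Pou2f2 and Pou2af1 are lower in them.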

How the data were processed

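RNA of CD8+ T cells from 3 Dot1l knockout and 3 wild type samples was measured on 6 arrays. The deposited table holds log2 values, for which the submitters' processing notes name RMA and R 3.1.1. No source used here gives the settings or a genome build, and no coordinates are printed. Arrays have no count depth, and their number limits the precision. Array medians lay between 3.69 and 3.78.

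Probe sets were named through the platform annotation, in which 23521 have 1 symbol, 1814 several and 16010 none. Dot1l knockout minus wild type was fitted over all 41345 probe sets by limma (version 3.58.1, run under R 4.3.3, without covariates), with Benjamini-Hochberg adjustment over all of them, and a probe set passed at an adjusted p under 0.05. The procedure was tested on simulated data. Each marker gene was read by its single-symbol probe set with the highest mean. Named members were the 12 highest in mean, the 12 lowest and 6 highest differences above background in a group, all constant regions and the 8 with the largest wild type SD. The remaining members, and the marker genes that did not pass other than the defining ones, were chosen after their values were seen. Members and lists were chosen with earlier results of these data known. Alternatives were a replicate block, leaving out each array, rescaling, filters, other fits and thresholds. Same-numbered arrays did not deviate together (correlations of -0.08, -0.15 and -0.06), so the numbers were not taken as pairs. These correlations do not exclude a pairing.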

Additional observations from a re-analysis of the deposited data

How the results depend on the processing

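The 7 immunoglobulin probe sets passing as lower became 0 with a replicate block (20 at an unadjusted p under 0.05). They became 12 when only probe sets with a symbol were fitted. Their number was 0 at a threshold of 0.01, 15 at 0.1, and 0 to 5 when 1 array was left out. The count passing as higher was 0 to 1 when 1 array was left out. The 4 B cell and plasma cell markers passing as higher became 0 with the replicate block (6 at an unadjusted p under 0.05), 2 after quantile normalization, 0 at a threshold of 0.01 and 0 to 3 with 1 array left out, while those passing as lower became 1 after quantile normalization and 1 at a threshold of 0.1. Without wild type replicate 3 the sign turned, and leaving out 1 array gave -0.913 to 0.0211 for Igkj1 (also the median of the kappa joining group), -0.90 to 0.15 for Igkv5-43 17467489 and -0.54 to 0.24 for Ighm 17284503. Igkv6-23, below the background guide, also turned (-0.04 with all arrays, 0.11 without that array). Leaving out 1 array moved the median SD of the members to between 0.119 and 0.338 in knockout arrays and 0.207 and 0.757 in wild type arrays. The median difference over all members stayed between -1.24 and -0.58 in these fits, and was -1.07 after quantile normalization and -0.99 after median centring. The cause of these changes was not tested. The replicate numbers were not taken as pairs, but a pairing was not excluded. Levels near background limit what can be read from the 6 members at or below the guide in every array.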

Other observations

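The 2 probe sets of Igh-VS107, a heavy chain V gene whose symbol falls outside the selection, did not share the lower level. Probe set 17284314 read 7.34, 6.99 and 7.05 in knockout arrays and 6.62, 6.82 and 7.23 in wild type arrays (0.24, SE 0.18). Probe set 17284463 read 4.23, 4.62 and 4.35 in knockout arrays and 3.67, 3.82 and 5.87 in wild type arrays, where replicate 3 again stood above the rest. These values were looked up after the others had been seen.

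Class II presentation genes, which B cells and dendritic cells use to show antigen to CD4 T cells, had a mean level of 5.48 to 5.71 in knockout arrays, against 5.54 in wild type replicate 3 and 4.80 in wild type replicates 1 and 2. H2-Ab1 read 6.34, 6.19 and 6.60 in knockout arrays and 4.62, 5.14 and 6.12 in wild type arrays and did not pass (1.09, SE 0.36, limma adjusted p = 0.180). H2-Aa rose by 1.21 in knockout arrays (SE 0.24, limma adjusted p = 0.0459). The other measured genes, H2-Eb1 and the class II activator Ciita, differed by -0.05 and -0.09, with overlapping groups. The receptor gene for IgM, Fcmr, read 5.06, 4.81 and 5.20 in knockout arrays and 3.91, 4.20 and 4.51 in wild type arrays (0.82, SE 0.18, adjusted p = 0.0613), which did not pass.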
